A study of Arabidopsis thaliana with 54 samples.

Results

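The 7 genes described here move zinc out of cells, store it in the vacuole or sense its supply in Arabidopsis thaliana. They are 3 zinc pumps (HMA2, HMA3 and HMA4), 2 transporters of the vacuolar membrane (MTP1 and ZIF1) and 2 zinc regulators (bZIP19 and bZIP23). They were picked by their locus identifiers as 7 of the 33610 identifiers counted in every library, and all 7 passed the filter on low counts in roots and in rosettes.

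The 54 RNA-seq libraries come from the roots or the rosettes of plants grown in hydroponic solution and form 18 groups of 3. The plants were wild-type Col-0 or spl7, the insertion line SALK_109908c, which is a single line with an insertion in the gene of the copper regulator SPL7. All plants had been raised with 25 µM iron. Col-0 had 0.1 µM copper in that time and spl7 had 2.5 µM, a supply that rescues the mutant.

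For 3 days the plants then received a control solution (25 µM iron and 0.5 µM copper), a copper-free solution with the same iron, an iron-free solution with the same copper, or a solution without iron and copper. A second spl7 control was raised with 0.1 µM copper like Col-0 and is called low-copper spl7 below; the word Ex stands in the titles of these libraries alone. Zinc was supplied at 2 µM to every group, so that no group was a zinc treatment. Containers held 16 plants, and the labels do not say that replicate libraries came from separate containers, so that p-values measure the spread between these libraries, which may be partly technical. Each group has 1 organ as a whole, and fewer cells of a type and less RNA per cell cannot be told apart in such samples. Because the main spl7 groups and Col-0 differ in copper pretreatment as well as genotype, differences between their responses cannot be assigned to either.

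As background, zinc enters root cells through ZIP transporters, is held back in vacuoles by MTP1 and ZIF1, and is pumped into the xylem for the shoot by HMA2 and HMA4. HMA3 loads zinc and cadmium into the vacuole in some accessions, whereas the Col-0 copy is known as a truncated, inactive allele. ZIF1 carries nicotianamine, a chelator of zinc and iron, into the vacuole, while bZIP19 and bZIP23 bind zinc directly and switch on ZIP genes when it is scarce. Zinc and iron transport meet in the root because the iron importer IRT1 also lets zinc in.

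HMA2 (AT4G30110) lies at chr4:14720062-14725311 on the minus strand and HMA3 (AT4G30120) at chr4:14730215-14733628 on the same strand, 4903 bases apart with no gene between them. Their coding sequences are 2856 and 1629 bases long, and that of HMA4 (AT2G19110, chr2:8278789-8286561, plus strand) is 3519 bases. MTP1 (AT2G46800) is at chr2:19235374-19239577 and ZIF1 (AT5G13740) at chr5:4432297-4437148, both on the plus strand. The regulators bZIP19 (AT4G35040, chr4:16680209-16682881) and bZIP23 (AT2G16770, chr2:7279366-7281499) are also on the plus strand. The end of bZIP19 overlaps AT4G35050 on the opposite strand by 302 bases and that of bZIP23 overlaps AT2G16780 by 126 bases, and since the strand setting of the counting is not given in the sources used here, reads there may belong to either gene. No stretch of 36 bases is shared between the exons of any pair of the 7 genes. All coordinates and sequences are those of RefSeq's TAIR10.1.

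The stretch of 300 bases before each gene start was searched for 3 exact motifs on both strands. These were TGTCGACA, the core that bZIP19 and bZIP23 are known to bind, GTAC, the core bound by SPL7, and CACGTG, the G-box bound by many bHLH and bZIP factors. The zinc core stood in 0 of the 7 promoters and in 0.324% of 27443 promoters of the annotation. It stood in 4 of 25 other zinc genes listed for this comparison, ZIP4, ZIP10, ZIP12 and IRT3, which encode zinc importers. These 4 sites are printed with the match in capitals and 11 bases on either side, read in the direction of the gene. ZIP4 is at chr1:3667160-3667189 (minus), ZIP10 at chr1:11177460-11177489 (minus), ZIP12 at chr5:24959930-24959959 (plus) and IRT3 at chr1:22447305-22447334 (minus).
ZIP4: taacgcgaaaaTGTCGACAtatttggctaa
ZIP10: ttaattagtaaTGTCGACActtactttgat
ZIP12: attaccgtgcaTGTCGACAttactcccaaa
IRT3: ttacaacaaaaTGTCGACAtttagttggcg

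The GTAC core stood in the promoters of HMA4 (190 bases before the gene start) and bZIP19 (31 bases), which is 2 of 7 against 39.7% of all promoters, and the G-box only in that of ZIF1 (270 bases), against 7.09%. The promoters of the genes that moved most, ZIF1 (chr5:4431997-4432296, plus) and HMA2 (chr4:14725312-14725611, minus), are printed 5′ to 3′ with matches in capitals. That of HMA2 held none of the 3 motifs in this window. Within 1000 bases it held 3 GTAC cores and that of ZIF1 held 5, where 82.3% of all promoters hold at least 1. A match or its absence is a description of these letters and says nothing about binding.
ZIF1: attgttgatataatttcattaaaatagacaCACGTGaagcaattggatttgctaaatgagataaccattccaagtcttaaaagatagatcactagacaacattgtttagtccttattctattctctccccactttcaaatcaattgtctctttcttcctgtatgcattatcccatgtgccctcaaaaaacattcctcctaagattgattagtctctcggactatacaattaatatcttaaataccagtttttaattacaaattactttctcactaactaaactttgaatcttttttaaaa
HMA2: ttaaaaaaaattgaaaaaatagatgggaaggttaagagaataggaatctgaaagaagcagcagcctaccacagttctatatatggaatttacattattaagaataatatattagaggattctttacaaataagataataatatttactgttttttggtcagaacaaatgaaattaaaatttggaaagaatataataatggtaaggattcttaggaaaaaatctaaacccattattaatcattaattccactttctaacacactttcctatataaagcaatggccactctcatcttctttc

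Libraries held 9254761 to 17277379 counts in roots and 11694883 to 20061836 in rosettes. SPL7 itself was at 58.2 to 77.7 CPM (a gene's count scaled to a common library total) in Col-0 roots and 23 to 28.9 in spl7 roots, and at 23.5 to 30.8 against 9.05 to 18.3 in rosettes. Root markers (COBL9, EXPA7 and CASP1) summed to 94.1 to 278 CPM in roots and at most 0.749 in rosettes, and leaf markers (LHCB2.1, RBCS1A and PETC) to 10800 to 23600 CPM in rosettes and at most 107 in roots. Replicate 3 of iron-free spl7 roots stood apart from its group: OPT3, a phloem iron transporter that rises when iron is scarce, was at 581, 446 and 63.5 CPM, and SKOR, a potassium channel of the root stele, at 26, 24.7 and 227. Calls in iron-free spl7 roots are therefore given with and without that library. All root groups were fitted together, and some other root comparisons also passed only without that library. The share of all genes that passed without it was not counted.

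Levels are CPM, scaled separately in each organ, and the values of a group are given in the order of replicates 1, 2 and 3. Changes are log2 ± standard error. Rose, fell and changed are used where edgeR's quasi-likelihood test gave a Benjamini-Hochberg adjusted p below 0.05 over all genes tested (20462 in roots, 20015 in rosettes). The 16 comparisons per organ share control groups, and so do the members' values in them.

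In roots 13 of 112 combinations of gene and comparison passed the test. Iron-free solution changed HMA2 and HMA3 in Col-0 (2 of 7, where 20.4% of all genes passed) and HMA2 and ZIF1 in spl7 (2 of 7, against 13.1%). No member passed after copper-free solution in Col-0 (0.0733% of all genes) or spl7 (0.21%), nor after the solution without iron and copper in Col-0 (4.69%) or spl7 (0.855%). Without adjustment 3, 1, 2 and 1 members had p below 0.05 in these 4 comparisons, and DESeq2's Wald test called 0, 0, 1 and 0. Low-copper spl7 differed from Col-0 in HMA2 and MTP1 (13.3% of all genes) and from high-copper spl7 in HMA2 (4.36%). The response to iron-free solution differed between the genotypes in HMA2 (7.02%). In no member did the genotypes' responses to copper-free solution (0.044% of all genes) or to the solution without iron and copper (1.48%) differ past the test. Without adjustment 1 and 2 members had p below 0.05 there, and DESeq2 called 0 and 2. Between the solution without iron and copper and the copper-free solution no member passed in spl7 roots (4.1% of all genes; 2 without adjustment, 0 by DESeq2).

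In rosettes 16 of 112 combinations passed. No member passed in any of the 3 Col-0 treatments, where 0.02% (copper-free), 2.41% (iron-free) and 7.77% (without iron and copper) of all genes did. None of those 21 values had p below 0.05 even without adjustment, and DESeq2 called none. Iron-free solution changed ZIF1 and MTP1 in spl7 (27.4% of all genes passed), copper-free solution changed HMA2 (1.12%), and no member passed without iron and copper (2.11%; 3 without adjustment, 1 by DESeq2). Low-copper spl7 differed from Col-0 in 3 members, a share close to the 42.2% of all genes that did, and from high-copper spl7 in 5, against 23.9%. The response of ZIF1 differed between the genotypes after iron-free solution (8.46% of all genes) and after the solution without iron and copper (8.29%). After copper-free solution it differed in no member (0.03% of all genes; 2 without adjustment, 0 by DESeq2). In Col-0 rosettes the solution without iron and copper also set no member apart from the iron-free (12.8% of all genes; 2 without adjustment, 0 by DESeq2) or the copper-free solution (6.18%; 1 and 0), nor from the sum of the single deficiencies (4.5%; 0 and 0).

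**Figure D1:**
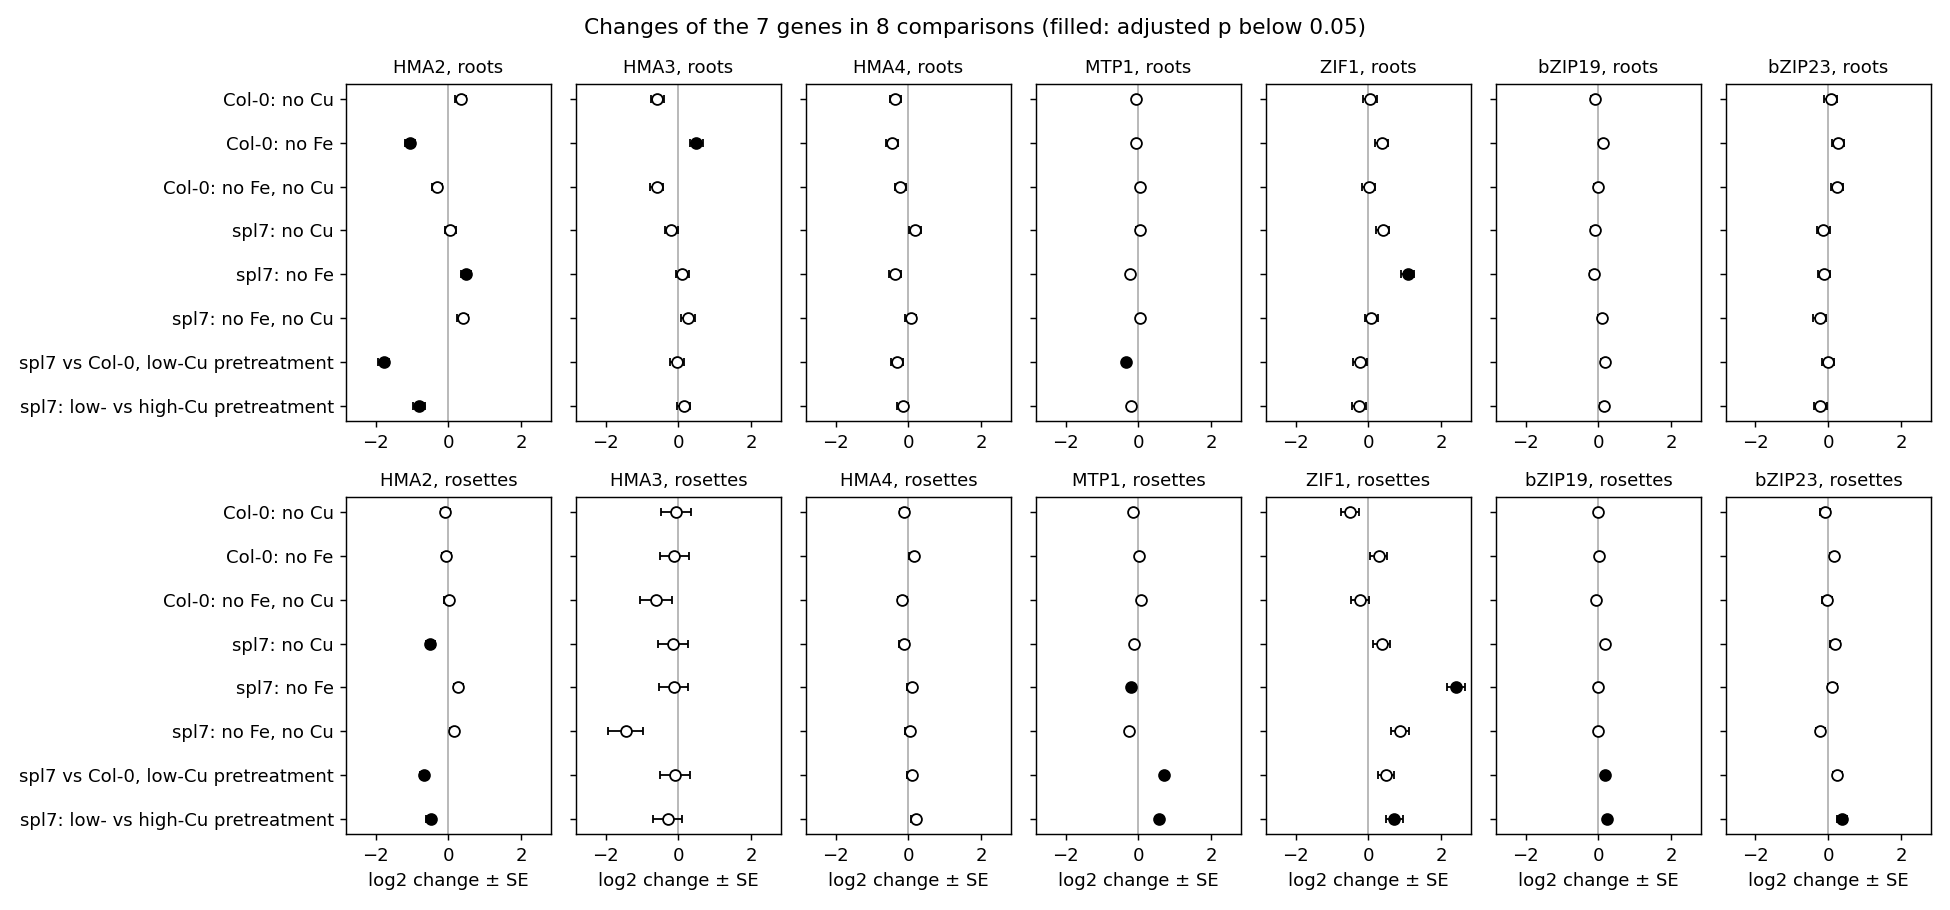
Log2 changes (horizontal axes, points with standard errors) of the 7 genes in 8 comparisons (rows), for roots above and rosettes below; filled points have an adjusted p below 0.05 in edgeR's test. HMA2 in roots lies at -1.05 in iron-free Col-0 and 0.48 in iron-free spl7, and ZIF1 in rosettes of iron-free spl7 at 2.40.

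HMA2, which shares xylem loading of zinc with HMA4, was the member that varied most in roots, and iron-free solution moved it in opposite directions in Col-0 and spl7. In Col-0 roots it stood at 21.0, 20.7 and 21.8 CPM in the control and at 10.7, 9.61 and 10.4 after iron-free solution. The groups did not overlap, and every iron-free library was near one level. HMA2 fell by 1.05 ± 0.14 on the log2 scale (adjusted p = 0.000107), from a mean of 21.2 ± 0.569 to 10.2 ± 0.563 CPM (SD, n = 3). In spl7 roots it stood at 11.5, 9.65 and 11.3 CPM in the control and at 16.9, 13.6 and 14.8 after iron-free solution. Here the iron-free libraries were the higher ones, again with no overlap, and the rise was 0.48 ± 0.15 (adjusted p = 0.0311), or 0.49 without replicate 3 (adjusted p = 0.0173). The responses of the genotypes differed by 1.53 ± 0.20 (adjusted p = 0.000168). Without replicate 3 of iron-free spl7 the difference was 1.54, and with any other library left out it stayed at 1.44 or above. The rise in spl7 alone did not pass without iron-free replicate 1 or any of the 3 control libraries (adjusted p up to 0.216), nor in a fit of the compared groups only (0.266).

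Without iron, Col-0 roots held more HMA2 when copper was also missing. HMA2 was at 23.4, 35.1 and 21.9 CPM in copper-free Col-0, all above control with replicate 2 far above the others, and the change did not pass (0.33 ± 0.14, adjusted p = 0.264). Without iron and copper it was at 18.1, 17.1 and 15.6 CPM, between the iron-free and the control libraries and overlapping neither. Taking copper away from iron-free plants thus went with a level of HMA2 higher by 0.72 ± 0.14 (adjusted p = 0.00298; 8.72% of all genes passed). Taking iron away from copper-free plants went with a level lower by a log2 change of -0.66 ± 0.14 (adjusted p = 0.00879; 5.66% of all genes), which did not pass without copper-free replicate 2 or without replicate 3 of the other group (adjusted p up to 0.0943). The departure from the sum of the single deficiencies was 0.39 ± 0.20 and did not pass (adjusted p = 0.247), nor did any other member (2.89% of all genes; 1 member without adjustment, 0 by DESeq2).

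Low-copper spl7 roots had the lowest HMA2 of all 9 root groups, at 6.43, 5.8 and 6.36 CPM, all below every library of the other groups. Against Col-0 raised with the same copper the change was -1.77 ± 0.15 (adjusted p = 1.9e-07), a 3.41-fold lower level. Against spl7 raised with more copper it was -0.80 ± 0.16 (adjusted p = 0.00455). HMA2 in spl7 roots was at 10.1, 13.7 and 9.86 CPM after copper-free solution and 14.4, 14.9 and 13.4 without iron and copper. The former overlapped its control and the latter lay above it, and neither passed (0.05 ± 0.15 and 0.39 ± 0.15, adjusted p = 0.977 and 0.318). In the order of group means copper-free Col-0 (26.8 CPM) came first, then control Col-0 (21.2), Col-0 without iron and copper (16.9), iron-free spl7 (15.1), spl7 without iron and copper (14.2), copper-free spl7 (11.2), control spl7 (10.8), iron-free Col-0 (10.2) and low-copper spl7 (6.2). From Col-0 without iron and copper to control spl7 each group overlapped the next in this order, and the others did not.

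Over the root libraries HMA2 had a higher r with PHO1 than with SKOR. PHO1, which loads phosphate into the xylem, was at 761, 815 and 795 CPM in control Col-0, 515, 489 and 472 in iron-free Col-0 and 365, 369 and 401 in low-copper spl7. It fell with iron-free solution in Col-0 (-0.68 ± 0.13, adjusted p = 0.00166) and was lower in low-copper spl7 than in Col-0 (-1.06 ± 0.13, adjusted p = 1.59e-05). Over 27 root libraries the log2 levels of HMA2 and PHO1 had r = 0.77, across groups that share libraries' depth and treatment, and HMA2 and SKOR had r = 0.24. The summed level of PHO1 and SKOR ran from 976 to 1040 CPM in control Col-0, 580 to 638 in iron-free Col-0, 648 to 737 in control spl7, 525 to 1130 in iron-free spl7 and 467 to 523 in low-copper spl7. In copper-free Col-0 it was 773 to 936, below every control library, while HMA2 was above control there. It was 941 to 983 in Col-0 without iron and copper and 671 to 815 in copper-free spl7. In spl7 without iron and copper it was 1000 to 1050, as in control Col-0, with HMA2 at only 13.4 to 14.9 CPM. The summed level of 5 xylem genes (IRX1, IRX3, IRX5, XCP1 and XCP2) was 599 to 675 CPM in control Col-0 and 460 to 594 in iron-free Col-0. It was 643 to 987 in control spl7, 377 to 562 in iron-free spl7 and 925 to 1070 in low-copper spl7. It was thus lower than control where HMA2 was in iron-free Col-0, and higher in low-copper spl7. In iron-free spl7 it was lower than control, while HMA2 was higher. Over the 27 root libraries HMA2 had a negative r with each of these 5 genes, from -0.57 (IRX5) to -0.52 (IRX1). The 6 endodermis genes ran from 266 to 314 in control Col-0, 289 to 338 in iron-free Col-0 and 244 to 275 in low-copper spl7. The part of such cells in the changes of HMA2 was not tested.

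**Figure D2:**
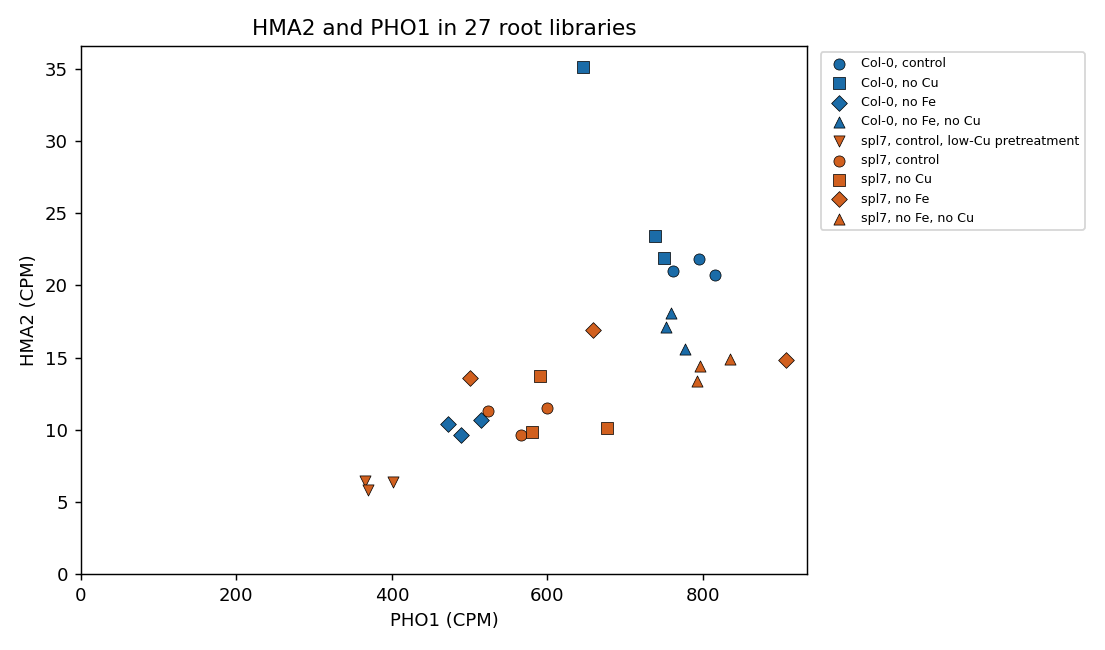
HMA2 against PHO1 in the 27 root libraries (both axes CPM, linear, starting at 0); colours mark the genotype and symbols the treatment. The 3 low-copper spl7 libraries sit lowest on both axes and iron-free Col-0 lies well to the left of control Col-0.

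FSD1, the iron superoxide dismutase that SPL7 switches on when copper is low, was measured beside HMA2. It was at 70.5, 72.9 and 69 CPM in control Col-0 roots, 294, 304 and 313 after copper-free, 1.88, 0.927 and 0.212 after iron-free and 49.2, 36.3 and 34.6 without iron and copper. The order of the 4 Col-0 groups was the same for FSD1 and the means of HMA2. In spl7 roots FSD1 did not exceed 0.302 CPM in any library, while HMA2 ranged from 5.8 to 16.9 CPM there.

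In rosettes HMA2 showed no change in Col-0, where the 4 groups had means of 45.3 to 48.6 CPM and overlapped throughout. The difference between roots and rosettes in the response of Col-0 to iron-free solution was -1.03 ± 0.19 (adjusted p = 0.00108; 3.96% of all genes passed). Low-copper spl7 rosettes had 30.7, 29.3 and 31.2 CPM, against 38.7, 51.2 and 55.1 in Col-0 and 43.6, 45.5 and 39.3 in high-copper spl7. The low-copper libraries lay below all of those. HMA2 was lower by a log2 change of -0.67 ± 0.12 against Col-0 (adjusted p = 0.000128) and -0.49 ± 0.12 against high-copper spl7 (adjusted p = 0.00528). HMA2 was thus lower in low-copper spl7 in roots and in rosettes, with a difference between organs that was not tested.

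Among spl7 rosettes HMA2 had the same mean after copper-free solution as in low-copper plants, 30.4 CPM. Copper-free libraries were at 27.3, 33.4 and 30.4 CPM, below their control, a fall of -0.50 ± 0.12 (adjusted p = 0.0457) that did not pass with 5 of 6 libraries left out in turn (adjusted p up to 0.201). Without iron and copper it was at 49.1, 46.6 and 46.6 CPM, above all copper-free libraries. That difference was 0.65 ± 0.12 (adjusted p = 0.00193; 13.3% of all genes passed), with adjusted p = 0.0529 in a fit of the compared groups only. After iron-free solution HMA2 was at 56, 53.5 and 45.5 CPM, which touched its control libraries' highest value and did not pass (0.27 ± 0.12, adjusted p = 0.0949).

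**Figure D3:**
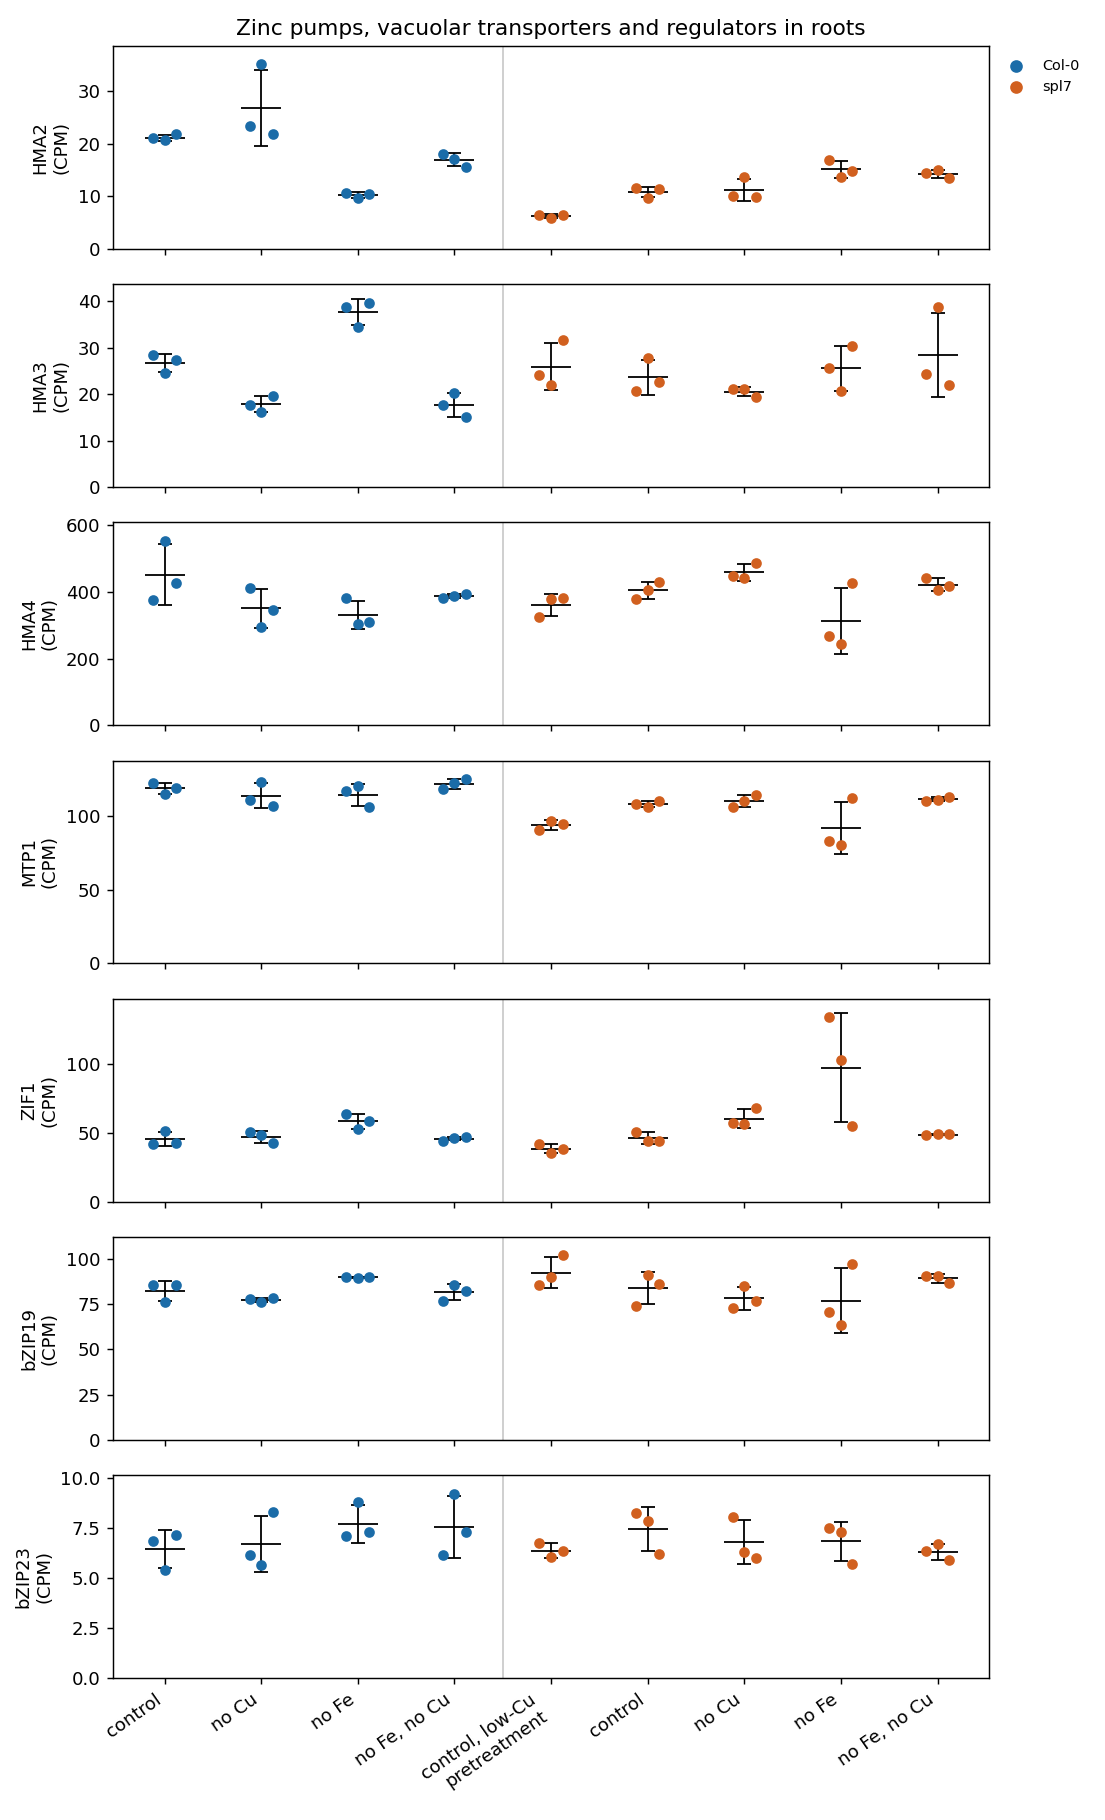
CPM (vertical axes from 0) of the 7 genes in each of the 27 root libraries, by group; points are libraries and black bars the mean ± SD of 3, Col-0 in blue and spl7 in orange. HMA2 is lowest in low-copper spl7 (5.8 to 6.43 CPM), HMA3 highest as a group in iron-free Col-0 (34.4 to 39.7 CPM), and replicate 3 of iron-free spl7 departs from replicates 1 and 2 in HMA4, MTP1, ZIF1 and bZIP19.

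HMA3, the vacuolar pump whose Col-0 copy is truncated, was detected in roots at 15 to 39.7 CPM (148 to 619 counts). In Col-0 it rose with iron-free solution, where HMA2 fell. It stood at 28.4, 24.6 and 27.3 CPM in the control, 38.8, 34.4 and 39.7 after iron-free solution, 17.7, 16.1 and 19.6 after copper-free solution and 17.6, 20.3 and 15 without iron and copper. The iron-free libraries were above, and the copper-free libraries of either kind below, all control libraries. The rise with iron-free solution was 0.49 ± 0.17 (adjusted p = 0.047) and did not pass when any of the 6 libraries was left out (adjusted p up to 0.178). The 2 lower groups differed from control by -0.58 ± 0.18 and -0.60 ± 0.18 without passing (adjusted p = 0.179 and 0.0555). For the latter DESeq2's Wald test gave 0.0268. There edgeR gave 0.0129 in a fit of the compared groups only and 0.0256 without replicate 3 of iron-free spl7. Iron-free plants without copper had less HMA3 than iron-free plants with copper, by -1.10 ± 0.18 (adjusted p = 0.000547), which held with each library left out.

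In spl7 roots HMA3 did not pass in any treatment, with changes of -0.20 ± 0.18 (copper-free), 0.11 ± 0.18 (iron-free, or -0.03 without replicate 3) and 0.26 ± 0.18 (without iron and copper). Replicate 2 of spl7 without iron and copper had 38.7 CPM against 24.3 and 22 in its group. IRT1, the iron importer, was at 1290 CPM in that library and at 191 and 254 in the others, and at 1290, 1070 and 1290 in iron-free Col-0. Over the 27 root libraries log2 levels of HMA3 and IRT1 had r = 0.77, across libraries that share depth and treatment. Whether iron state sets the spread of HMA3 was not tested. All 9 groups overlapped their neighbours in the order of HMA3 levels, from iron-free Col-0 (37.6 CPM) to Col-0 without iron and copper (17.6 CPM).

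HMA3 was close to the detection limit in rosettes, with 3 to 18 counts per library (0.224 to 1.07 CPM). No comparison passed there, with 3 at an unadjusted p below 0.05 and 0 by DESeq2. The lowest group was spl7 without iron and copper (0.341, 0.263 and 0.244 CPM), all below its control (0.844, 0.596 and 0.921 CPM), with a change of -1.44 ± 0.48 (adjusted p = 0.126). Counts this low limit what could be detected.

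HMA4, the main pump that loads zinc into the xylem, was at 243 to 553 CPM in roots and 31 to 52.1 CPM in rosettes. None of its 16 comparisons passed in either organ, with 6 in roots and 1 in rosettes at an unadjusted p below 0.05 and with 1 and 0 called by DESeq2. In Col-0 roots it stood at 375, 553 and 426 CPM in the control and 380, 303 and 309 after iron-free solution. Control replicate 1 lay inside the iron-free range, and the change was -0.45 ± 0.16 (adjusted p = 0.0527).

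In iron-free spl7 roots HMA4 was at 269, 243 and 425 CPM against 377, 406 and 429 in the control. Replicates 1 and 2 lay below all control libraries and replicate 3 among them, with a change of -0.37 ± 0.16 (adjusted p = 0.13). Without replicate 3 it was -0.67 (adjusted p = 0.000497). Against the solution without iron and copper HMA4 in iron-free spl7 roots did not pass either (0.43 ± 0.16 higher without both metals, adjusted p = 0.0728), but did without replicate 3 (0.73, adjusted p = 0.000175). The other spl7 root groups were at 440 to 486 CPM (copper-free), 405 to 442 (without iron and copper) and 324 to 381 (low-copper). In the order of root means, from copper-free spl7 (458 CPM) to iron-free spl7 (312 CPM), all neighbours overlapped except the fifth and the sixth, Col-0 without iron and copper (387) and low-copper spl7 (361).

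ZIF1, which puts nicotianamine into the vacuole and so holds zinc back, had the largest rise of any member. In spl7 rosettes it was at 39, 35.9 and 38.3 CPM in the control and at 207, 193 and 199 after iron-free solution. Every iron-free library was far above every library of the other 8 groups. ZIF1 rose by 2.40 ± 0.24 (adjusted p = 2.11e-07), that is 5.29-fold, and with any library left out by at least 2.37. In Col-0 rosettes it was at 36.6, 62.1 and 35 CPM in the control and at 70.9, 45.4 and 45.7 after iron-free solution. These groups overlapped, and the change was 0.28 ± 0.23 (adjusted p = 0.644). The genotypes' responses differed by 2.12 ± 0.33 (adjusted p = 0.000596).

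Removing copper together with iron went with less ZIF1 in spl7 rosettes than removing iron alone. Without iron and copper ZIF1 was at 85.3, 78.8 and 43.4 CPM, all above control and all below iron-free. The difference from iron-free was -1.53 ± 0.23 (adjusted p = 7.9e-05; 18.1% of all genes passed), and that from control 0.87 ± 0.24, which did not pass (adjusted p = 0.0543). In Col-0 the same solution gave 38.1, 38.4 and 37.1 CPM, within the control's range (-0.23 ± 0.24, adjusted p = 0.656). The difference between the genotypes was 1.10 ± 0.34 (adjusted p = 0.043) and did not pass with 9 of 12 libraries left out in turn (adjusted p up to 0.139), nor with the replicate number as a block.

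Low-copper spl7 rosettes had more ZIF1 than high-copper spl7, at 77.7, 54 and 53.6 CPM, by 0.71 ± 0.24 (adjusted p = 0.0305). Without replicate 1 of that group the change was 0.51, and it did not pass there or with any control library left out (adjusted p up to 0.18). Against Col-0 it was 0.48 ± 0.23 (adjusted p = 0.101). Copper-free solution gave 29.7, 30.8 and 33.8 CPM in Col-0 and 36.7, 43.9 and 63.5 in spl7, neither of which passed (-0.50 ± 0.24 and 0.36 ± 0.24, adjusted p = 0.582 and 0.514). The order of rosette means ran from iron-free spl7 (200 CPM) to copper-free Col-0 (31.4 CPM), a 6.37-fold range.

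**Figure D4:**
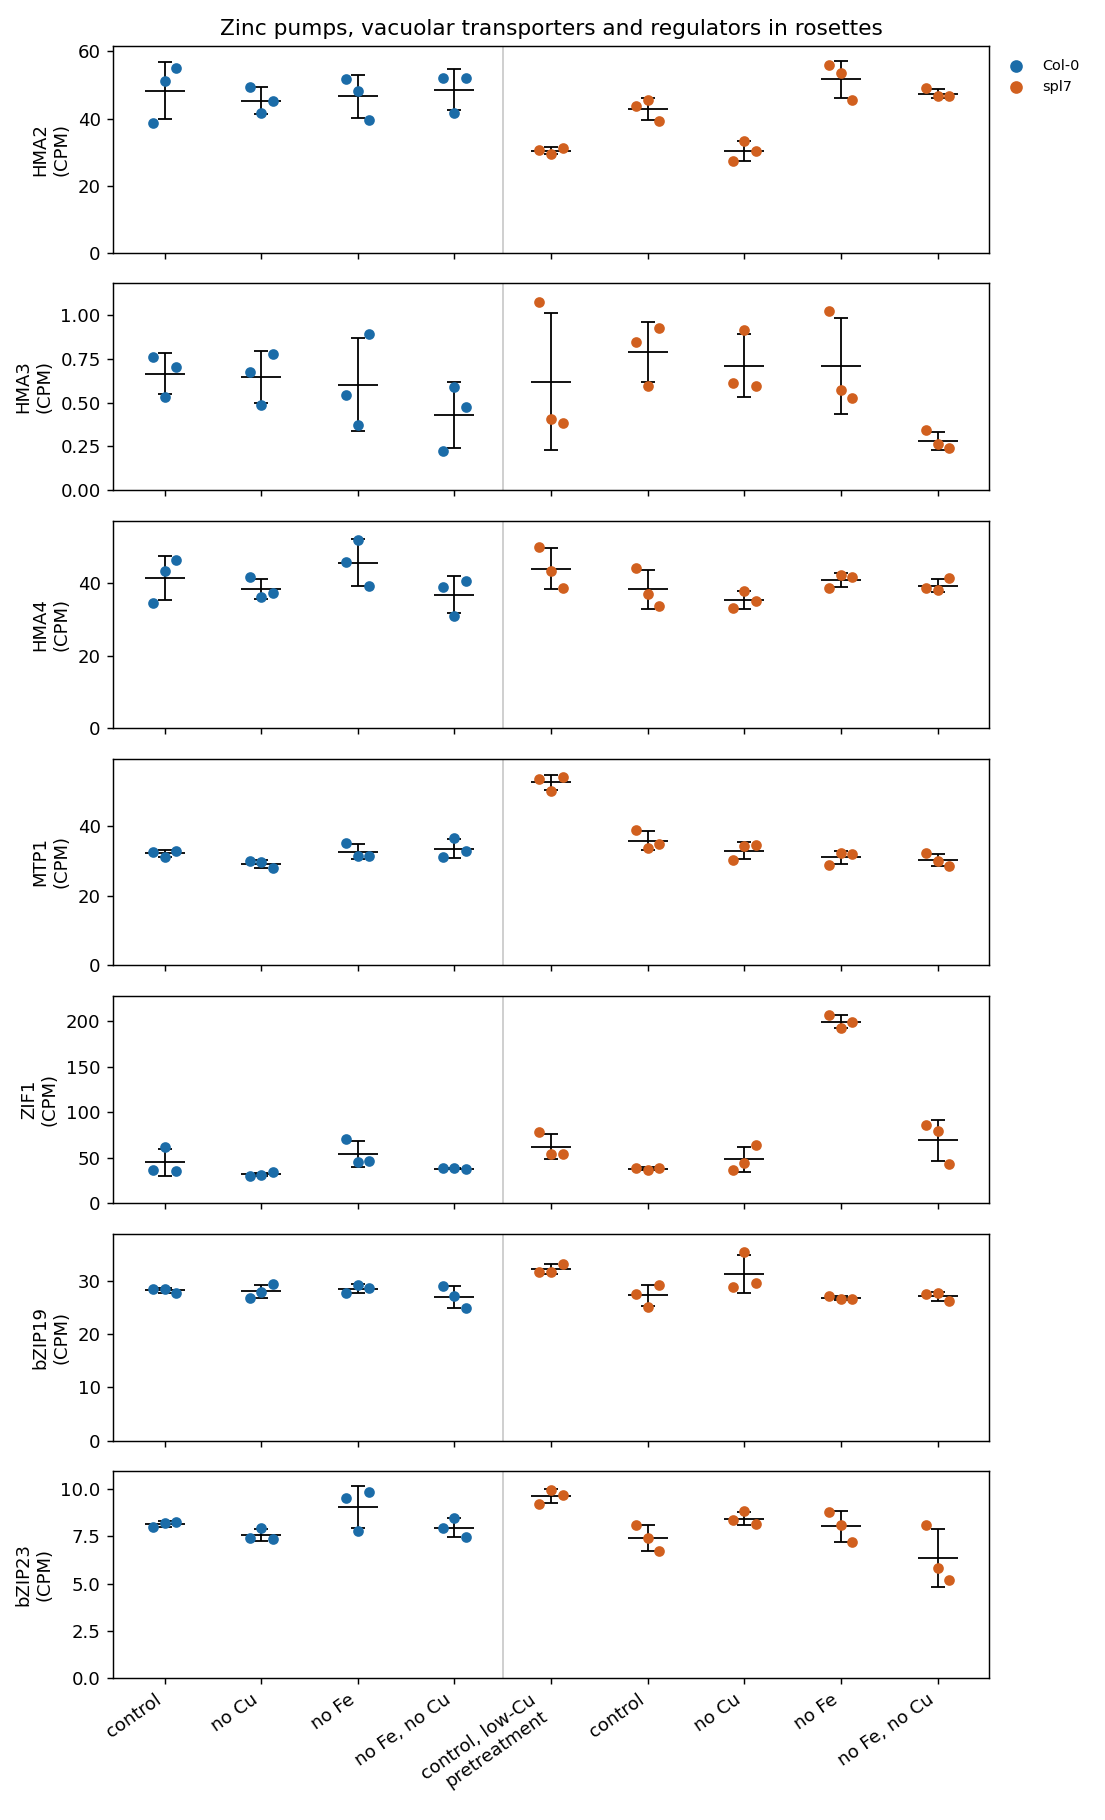
CPM (vertical axes from 0) of the 7 genes in each of the 27 rosette libraries, drawn as for roots, with points for libraries and bars for the mean ± SD of 3. ZIF1 in iron-free spl7 (193 to 207 CPM) and MTP1 in low-copper spl7 (50.1 to 53.9 CPM) lie above all other groups, and HMA3 does not exceed 1.07 CPM.

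In roots ZIF1 was at 50.9, 43.9 and 43.9 CPM in control spl7 and at 134, 103 and 55.1 after iron-free solution. All 3 were above control, with replicate 3 closest to it. The rise was 1.08 ± 0.18 (adjusted p = 0.000815), or 1.35 without replicate 3, and did not pass in a fit of the compared groups only (adjusted p = 0.263). Without iron and copper ZIF1 was at 48.2, 49 and 48.9 CPM, below all iron-free libraries by -1.0 ± 0.18 (adjusted p = 0.00196; 13.9% of all genes passed; 0.387 in a fit of only these groups). Without iron-free replicate 3 the difference was -1.27 and passed. In Col-0 roots it was at 42.2, 51.2 and 42.7 CPM in the control and 63.9, 52.7 and 58.6 after iron-free solution. All iron-free libraries were higher, by 0.36 ± 0.18, which did not pass (adjusted p = 0.157). This change passed in a fit of the compared groups only (adjusted p = 0.0339). It also passed in the fit without replicate 3 of iron-free spl7 (adjusted p = 0.0118). The difference between the genotypes in roots was 0.71 ± 0.26 (adjusted p = 0.0964) and 0.99 without replicate 3 of iron-free spl7 (adjusted p = 6.95e-05).

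In 5 rosette groups 1 library stood apart in ZIF1, and its markers of iron state are given here. In control Col-0 rosettes replicate 2, the one high in ZIF1 (62.1 CPM), had OPT3 at 226 CPM against 59.6 and 76.7, and FER1, an iron storage ferritin, at 39.7 CPM against 597 and 306. In copper-free spl7 rosettes replicate 3, with ZIF1 at 63.5 CPM, had OPT3 at 135 CPM against 48.7 and 52.3, and FER1 at 51.1 against 530 and 633. In spl7 rosettes without iron and copper replicate 3, the one low in ZIF1 (43.4 CPM), had OPT3 at 137 CPM against 301 and 293, but FER1 at 17.8 CPM against 15.8 and 17.7. In the groups given so far OPT3 was thus on the side of ZIF1 each time. FER1 was far on the other side in the first and second, and nearly level in the third. In the groups that follow OPT3 was again on the side of ZIF1 and FER1 on the other. In iron-free Col-0 replicate 1, with ZIF1 at 70.9 CPM, OPT3 was at 250 CPM against 160 and 151, and FER1 at 19.5 against 28 and 46.7. In low-copper spl7 replicate 1, with ZIF1 at 77.7 CPM, OPT3 was at 151 CPM against 78.9 and 59.6, and FER1 at 160 against 249 and 521. Over 27 libraries the log2 levels of ZIF1 and OPT3 had r = 0.88 in rosettes and 0.68 in roots, and those of ZIF1 and FER1 -0.78 and -0.52, across libraries that share depth and treatment. The control groups thus hold libraries of unequal iron markers, and the part of this in the comparisons was not tested.

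**Figure D5:**
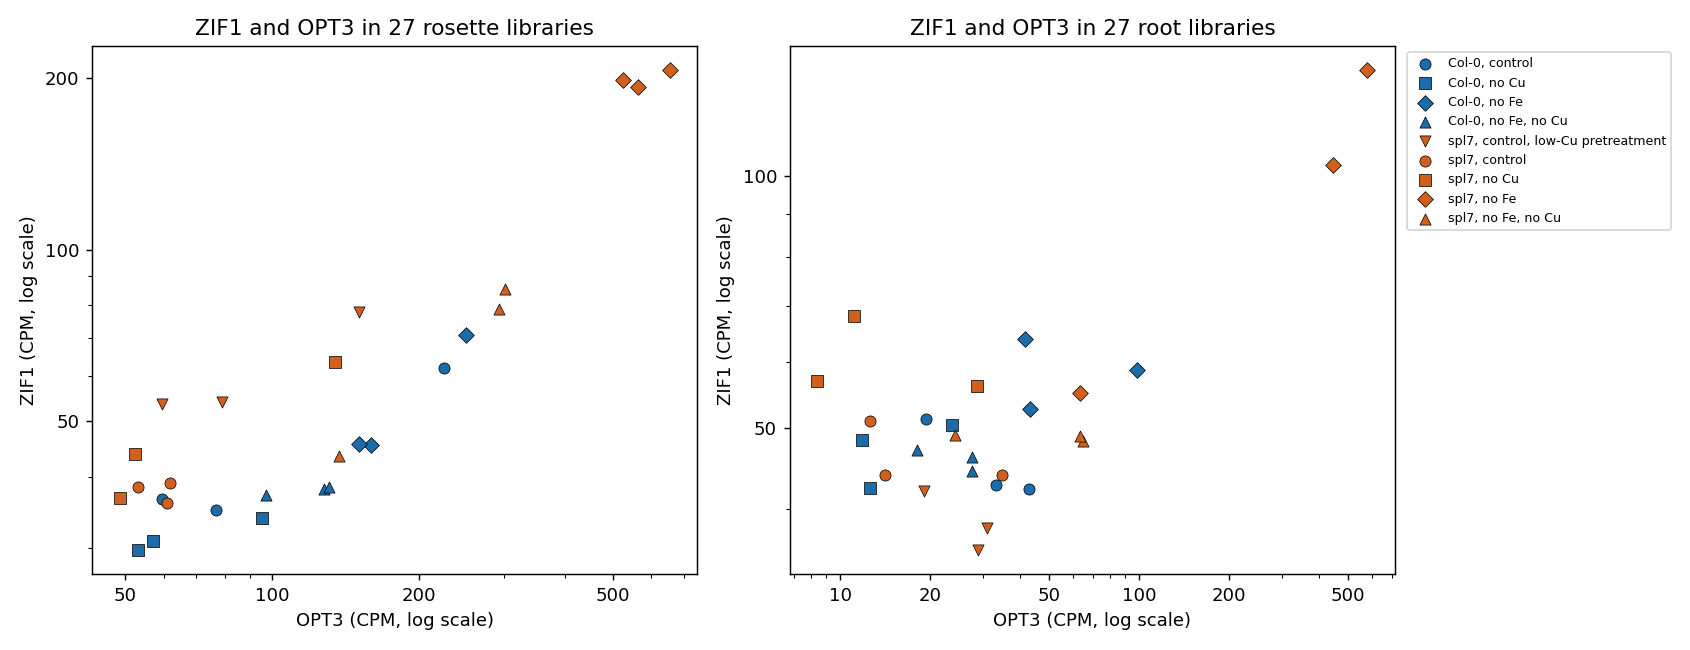
ZIF1 against OPT3 in the rosette and the root libraries (27 each; both axes CPM on a log scale); colours mark the genotype and symbols the treatment. In rosettes the points climb together from control libraries to iron-free spl7 (OPT3 525 to 656 CPM, ZIF1 193 to 207), and in roots replicates 1 and 2 of iron-free spl7 stand apart from replicate 3 (OPT3 63.5 CPM, ZIF1 55.1).

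MTP1, which exchanges zinc for protons at the vacuolar membrane, varied little with treatment but differed between low-copper spl7 and Col-0, in opposite directions in the organs. In rosettes low-copper spl7 had 53.3, 50.1 and 53.9 CPM, Col-0 had 32.5, 31 and 32.9, and high-copper spl7 had 38.8, 33.6 and 34.9. The low-copper libraries were above all others in rosettes. MTP1 was higher by 0.71 ± 0.07 than in Col-0 (adjusted p = 1.29e-07) and by 0.55 ± 0.07 than in high-copper spl7 (adjusted p = 1.66e-05), and both calls held with each library left out. In roots the low-copper libraries had 90.2, 96.8 and 94.5 CPM against 122, 115 and 119 in Col-0. They were below all Col-0 libraries, by -0.34 ± 0.09 (adjusted p = 0.0149, or 0.0502 without low-copper replicate 1). Against high-copper spl7 roots (106 to 110 CPM) the change was -0.20 ± 0.09 and did not pass (adjusted p = 0.234). In the fit without replicate 3 of iron-free spl7 it did (adjusted p = 0.0342). The difference between organs was not tested.

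The treatments of Col-0 left MTP1 between 106 and 125 CPM in roots and 27.8 and 36.6 CPM in rosettes, with no call. In iron-free spl7 roots it was at 82.8, 80.4 and 112 CPM against 108, 106 and 110 in the control. Replicates 1 and 2 were below control and replicate 3 was not, and the change was -0.23 ± 0.09 (adjusted p = 0.0907), or -0.41 without replicate 3 (adjusted p = 3.58e-05). Spl7 roots without iron and copper had 110, 111 and 113 CPM, higher than iron-free by 0.28 ± 0.09 (adjusted p = 0.0422), which did not pass with 5 of 6 libraries left out in turn (adjusted p up to 0.285). The exception was iron-free replicate 3, without which the difference was 0.46. In iron-free spl7 rosettes MTP1 was at 28.8, 32.2 and 31.9 CPM, a fall of -0.21 ± 0.08 (adjusted p = 0.042) that did not pass with 4 of 6 libraries left out in turn (adjusted p up to 0.215).

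The regulators bZIP19 and bZIP23 had no call in roots and 2 each in rosettes. In roots bZIP19 was at 63.3 to 102 CPM and bZIP23 at 5.38 to 9.22 CPM (52 to 133 counts), and none of their 32 values passed or had an unadjusted p below 0.05 in edgeR, nor did DESeq2 call any. In iron-free spl7 roots bZIP19 was at 70.8, 63.3 and 97.1 CPM, with replicate 3 above and replicates 1 and 2 below every control library (74, 91.4 and 86.4 CPM). Its change was -0.12 ± 0.11 (adjusted p = 0.489), and without replicate 3 it was -0.33 (adjusted p = 0.00472). Without that library the genotypes' responses to iron-free solution also differed in bZIP19 (-0.45, adjusted p = 0.00898) and MTP1 (-0.35, adjusted p = 0.00765).

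In rosettes low-copper spl7 had the highest group mean of both regulators, each overlapping the next group in the order. Its bZIP19 was at 31.6, 31.7 and 33.2 CPM, against 28.4, 28.5 and 27.6 in Col-0 and 27.5, 25.1 and 29.1 in high-copper spl7, with no overlap. The differences were 0.19 ± 0.07 (adjusted p = 0.0328) and 0.24 ± 0.07 (adjusted p = 0.0165). The first did not pass with any library left out (adjusted p up to 0.103), and the second not with 2 of 6 (up to 0.0998). bZIP23 was at 9.22, 9.96 and 9.67 CPM against 8.09, 7.41 and 6.7 in high-copper spl7, higher by 0.37 ± 0.13 (adjusted p = 0.0338), which did not pass with 5 of 6 libraries left out (up to 0.127). It was at 8.11, 5.8 and 5.18 CPM in spl7 without iron and copper against 8.38, 8.82 and 8.13 in copper-free spl7, lower by -0.41 ± 0.13 (adjusted p = 0.0398), a call lost with 4 of 6 libraries left out (up to 0.231).

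Between control Col-0 roots and rosettes 6 of the 7 genes differed, where 77.9% of 22078 genes did. On the scale of both organs HMA4 was 7.91-fold higher in roots (2.98 ± 0.17, adjusted p = 3.65e-20), HMA3 28.6-fold (4.84 ± 0.26, adjusted p = 1.15e-20), MTP1 2.69-fold (1.43 ± 0.09) and bZIP19 2.13-fold (1.09 ± 0.10). HMA2 was 3.14-fold lower in roots (-1.65 ± 0.13, adjusted p = 5.35e-15) and bZIP23 1.74-fold lower (-0.80 ± 0.15). ZIF1 did not pass (-0.42 ± 0.22, adjusted p = 0.0736; DESeq2 called it). The pumps that load the xylem thus lay on opposite sides: HMA4 higher in roots and HMA2 higher in rosettes.

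Per length, as CPM per kilobase of exon, HMA4 was highest in control Col-0 roots at 91.5 ± 19.9, followed by MTP1 at 39.2 ± 0.888, bZIP19 at 29.8 ± 1.51, ZIF1 at 16.0 ± 2.04, HMA3 at 8.75 ± 0.555, HMA2 at 5.69 ± 0.0788 and bZIP23 at 3.54 ± 0.469 (SD, n = 3). In rosettes the order was ZIF1 at 21.6 ± 7.43, HMA2 at 17.9 ± 3.19, MTP1 at 14.6 ± 0.423, bZIP19 at 14.0 ± 0.286, HMA4 at 11.6 ± 1.71, bZIP23 at 6.15 ± 0.122 and HMA3 at 0.299 ± 0.0521. In rosettes the means of HMA2 and MTP1 lay within the SD of ZIF1.

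The genes most like each member were found by Pearson r of log2 CPM over the 27 libraries of an organ, as a description of libraries that share depth and treatment. In roots they were RALFL32 (0.90) and AT5G42200 (0.89) for HMA2, AT4G17680 and GRF11 (0.88 each) for HMA3, TPS9 (0.95) and AT4G16070 (0.94) for HMA4, AT2G27402 (0.91) and AT3G50160 (0.89) for MTP1, and ASN1 (0.92) and AT1G12030 (0.90) for ZIF1. In rosettes ZIF1 was most like ORG1 and BTS (0.97 each), MTP1 like CAT2 and AT4G27020 (0.95 each), HMA2 like eIFiso4G1 and ATMS1 (0.86 each) and HMA4 like AT5G04680 (0.85) and AT3G20010 (0.83). The best values for bZIP19 were 0.81 in roots and 0.85 in rosettes, for bZIP23 0.73 and 0.68, and for HMA3 in rosettes 0.64. No member was among the genes most like another.

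Of 25 other zinc genes, 23 were tested in roots and 18 in rosettes. In iron-free Col-0 roots 4 rose and 4 fell (20.4% of all genes passed), with a median change of 0.05 against 0.01 over all genes. With single libraries of the compared groups left out 1 to 4 rose and 2 to 4 fell, fewest without control replicate 2 (1 and 2). Leaving out control replicate 3 or iron-free replicate 3 (2 and 3 each) or iron-free replicate 2 (2 and 2) also lowered the count by over 1.5 times. In a fit of the compared groups only 8 rose and 6 fell, and 6 rose and 6 fell without replicate 3 of iron-free spl7. ZIP2, a zinc and manganese transporter, fell from 54.4, 64.6 and 42.4 to 5.96, 4.5 and 4.52 CPM (-3.42 ± 0.25), the direction of HMA2. The vacuolar zinc transporter MTP3 rose by 1.72 ± 0.60, the nicotianamine synthase NAS4 by 2.25 ± 0.70 and ZIP9 by 1.32 ± 0.27. Because HMA2 fell and HMA3 rose there, any called gene shares a direction with 1 of them. In low-copper spl7 roots 1 was higher and 5 were lower than in Col-0 (13.3% of all genes passed; median 0.04 against 0.01), among them ZIP2 (-3.72 ± 0.26), again beside HMA2. The 5 became 2 without Col-0 replicate 2 or low-copper replicate 3, and 3 without Col-0 replicate 3 or low-copper replicate 2. Leaving out replicate 3 of iron-free spl7 gave 2 higher and 7 lower. The response of ZIP2 to iron-free solution differed between the genotypes by 2.77 ± 0.41 (adjusted p = 0.000556), the sign of HMA2. Its response to copper-free solution differed by -2.07 ± 0.38 (adjusted p = 0.0433, where 0.044% of all genes passed). The copper-free call was lost with the replicate block and without any single spl7 library of the compared groups. It was also lost without control Col-0 replicate 3 or copper-free Col-0 replicate 2 or 3.

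In iron-free spl7 roots 3 of the 23 rose and 1 fell (13.1% of all genes passed; median 0.05 against 0), without replicate 1 of that group 2 rose and none fell, while without replicate 3 of that group 4 rose and 7 fell, and in a fit of the compared groups only none passed. NAS4 rose from 0.855, 3.34 and 0.83 to 100, 68.5 and 6.44 CPM (5.14 ± 0.72), with replicates 1 and 2 far above replicate 3, as for ZIF1. In Col-0 roots without iron and copper none passed (2 at an unadjusted p below 0.05, 1 by DESeq2). Against iron-free Col-0 the same group had 3 higher and 7 lower (8.72% of all genes passed), where the 7 became 4 without its replicate 2 and 3 without its replicate 3. MTP3 differed by -3.33 ± 0.65 and ZIP2 by 3.22 ± 0.25.

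In iron-free spl7 rosettes 8 of 18 rose and 1 fell (12.6% and 14.8% of all genes; median 0.13 against 0.01), where ZIF1 rose. The 4 with the largest changes were NAS4 (14.7, 13.8 and 14.3 to 175, 144 and 123 CPM, 3.37 ± 0.37), FRD3, a citrate exporter without the zinc core (0.422, 0.397 and 0 to 1.82, 2.55 and 2.05 CPM), and 2 genes with the zinc core printed above, ZIP4 (5.98, 6.16 and 6.45 to 12.7, 14.2 and 11.9 CPM, 1.06 ± 0.15) and IRT3 (1.14 ± 0.29). The mRNA levels of bZIP19 and bZIP23 did not pass in that comparison (-0.02 ± 0.07 and 0.11 ± 0.13, adjusted p = 0.851 and 0.539). In Col-0 rosettes none of the 18 passed after any of the 3 treatments in edgeR or DESeq2, with 1, 1 and 3 at an unadjusted p below 0.05. Without iron and copper 3 rose in spl7 rosettes and none fell (2.11% of all genes passed; median 0.09 against 0): NAS4 (1.63 ± 0.37), ZIP4 (0.60 ± 0.16) and ZIP1 (0.57 ± 0.14). With any 1 of the 6 libraries left out this count was 0 or 1, and with the replicate block 2. In low-copper spl7 rosettes 5 were higher and 1 was lower than in Col-0 (median 0.06 against 0), a share below the 42.2% of all genes, the lower one being ZIP1 (-0.85 ± 0.14).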

How the data were processed

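The authors deposited raw read counts per gene, 1 file per library, all whole numbers. The submitters' processing notes name Bowtie, HTSeq and the TAIR10 build; versions and the strand setting are not given in the sources used here. The count files were fitted per organ (27 libraries) and together (54) with edgeR 4.0.16 in R 4.3.3: TMM scaling, filterByExpr (minimum count 10, minimum total 15), a mean per group and the quasi-likelihood test, Benjamini-Hochberg adjusted over all genes of a comparison. Standard errors were taken as the size of the log2 change divided by the root of the test's F. DESeq2 1.42.0 and the other alternatives are given in the closing section. Promoters came from RefSeq's TAIR10.1, matched by locus identifier; protein sequences were not used here. No replicate pair was identical (chi-square per degree of freedom 2.64 to 69.1 in 54 pairs). Tests were tried on simulated data. Named genes beside the members came from fixed lists of up to 4 called zinc genes per comparison, 5 markers of iron and copper state, cell type markers and the 2 most similar genes. Members, lists and tests were chosen with earlier results of these data known.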

Additional observations from a re-analysis of the deposited data

Results flagged for a closer look

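The response of HMA2 to iron-free solution differed between spl7 and Col-0 roots by a log2 difference of 1.53 when the difference itself was tested. All 3 iron-free Col-0 libraries lay below their control libraries, and all 3 iron-free spl7 libraries lay above theirs. The rise in spl7 alone did not pass without iron-free replicate 1 or any of the 3 control libraries. Nor did that rise pass in a fit of only the compared groups. The response of HMA2 in Col-0 also differed between the organs, with a root minus rosette difference of -1.03.

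The response of ZIF1 in rosettes differed between the genotypes by 2.12 after iron-free solution and by 1.10 after the solution without iron and copper, spl7 minus Col-0. Copper pretreatment differs along with the genotype in all 3 differences between genotypes. No explanation was tested.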

How the results depend on the processing

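Of 36 calls, 24 kept their direction and side of the threshold under every alternative, 23 with each library of the compared groups left out, 20 under both, and 0 reversed. The count of calls in roots was 13 as reported and 29 without replicate 3 of iron-free spl7 in every comparison. The share of all genes that passed without that library was not counted, so the rise to 29 cannot be called particular to these genes. Over single libraries left out the count in roots ran from 11 to 29, with 29 being that library. With single libraries left out the counts were 11 to 19 in rosettes (16 as reported) and 7 to 8 between organs (7 as reported). Calls kept were 36 of 36 with DESeq2 size factors, 33 with DESeq2's Wald test, 31 with no filter, and 21 of 29 in fits of only the compared groups. The replicate block kept 32 of 36, with 12 calls in roots, 13 in rosettes and 7 between organs. Within an organ replicate numbers do not pair the libraries of different groups. Correlations of same-numbered libraries exceeded 0.1 in 19 of 108 pairs in roots and 18 of 108 in rosettes. In roots 11 and in rosettes 8 of 27 libraries correlated best with their own number. Same-numbered root and rosette libraries were not compared in this way. Depth limits HMA3 in rosettes most. The causes of lost calls were not tested.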
